A study of Gallus gallus with 24 samples.

Results

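The ATP-binding cassette (ABC) transporter genes of the chicken were followed in liver from late incubation to the 9th day after hatch. A gene was taken where its array symbol read ABC, a letter from A to G and a number, with 1 gene left out, and the probe set with the highest mean over the 24 arrays stood for it. This gave 36 genes, read from 81 probe sets, of 13009 named genes on the Chicken Genome Array. In 15 of the 36 there was 1 probe set, and in 21 there were several.

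Livers came from male Ross x Ross broilers, a commercial meat-type cross, and each array held the RNA of 1 bird. There were 4 embryos each at E16, E18 and E20 (embryonic days, in ovo), and 4 hatchlings each at D1, D3 and D9 (days after hatch). The D1 chicks had water and no feed and were sampled while still in the hatching incubator, whereas the D3 and D9 chicks ate a commercial starter ration with free water. The labels have the D1 chicks kept about a day in the incubator after hatch and the study's methods only some hours, so the length of their fast is not settled. The study vaccinated the chicks kept beyond D1 against Marek's disease and moved them to a heated brooder. No drug or diet treatment was compared within an age. Age, hatching, first feeding, vaccination and housing therefore run together, and hatching and the fast of D1 cannot be told apart. By the study's methods each of 4 hybridization days held 1 bird of every age, and the replicate number of a bird was taken as its day. The stage label of the E18 and E20 samples reads E16 against their titles, and the titles were used. In whole liver, fewer cells of a type and less RNA per cell cannot be told apart.

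Levels are RMA log2 intensities, in which 1 unit is a doubling of signal, and differences are the later age minus the earlier one. A difference was called at an adjusted p of 0.05 or less and a size of 0.75 or more in limma, with adjustment by Benjamini and Hochberg over 38439 probe sets. Probe sets differ in how well they bind, so levels of different genes were not compared. Array medians lay between 5.43 and 5.55. Of 6 measured hepatocyte markers, 0 were called in any of the 7 contrasts, and their mean level per liver stayed between 14.44 and 14.55. These levels lie near the highest value on any array (15.24), so a change in the share of hepatocytes could not be read from them. Of markers of other cells in E vs. H, 1 of 8 for macrophages was higher, 3 of 5 for granulocytes and 1 of 4 for bile ducts were lower, and 0 of 7 for lymphocytes, 0 of 5 for erythroid cells and 0 of 7 for heart, muscle and pancreas were called. From E18 to E20, 2 of the 4 bile duct and 2 of the 5 erythroid markers fell, and from D1 to D3, 3 of the 5 granulocyte markers fell and 2 of the 5 erythroid markers rose. From D3 to D9, 3 of the 7 lymphocyte markers and 1 of the 8 macrophage markers rose. From E16 to D9, 5 of the 8 macrophage markers were higher, with a median difference of 1.13, and 2 of the 7 lymphocyte markers were higher. The median difference of the granulocyte markers was negative and larger in size than that of the macrophage markers. In that contrast 3 of the 5 granulocyte, 2 of the 5 erythroid and 1 of the 4 bile duct markers were lower, of 9 stromal markers 1 was higher and 2 were lower, and 0 of 6 endothelial markers were called. The part of these cells in the ABC values was not tested. The liver labelled E18 replicate 2 stood apart with HINTW, a gene of the female-specific W chromosome, at 12.17 against at most 6.05 on every other array, although the label says male. The liver of D9 replicate 1 had NPPA, the atrial natriuretic peptide, at 8.11 against at most 5.23 elsewhere. The mean level per liver of the 7 measured heart, muscle and pancreas markers ran from 4.67 to 6.60 at D9. It reached at most 5.13 at any other age. Counts are therefore also given without E18 replicate 2 and D9 replicate 1.

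ABC transporters use ATP to push substrates across membranes. In mammalian hepatocytes some members face the bile canaliculus and export cholesterol, conjugated bilirubin, bile salts and drugs. Others return conjugates to blood when bile flow is low. Half-transporters of the D subfamily feed acyl chains into peroxisomes, several B members serve mitochondria, and the E and F proteins have no membrane span and act on ribosomes. The late chick embryo lives on yolk lipid, the hepatocyte stores cholesteryl ester from it, and the hatched chick changes to a feed rich in carbohydrate.

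Of the 36 ABC genes, 17 (47.2%) varied over the 6 ages in the moderated F test, with an adjusted p of 0.05 or less and age means at least 0.75 apart. Among 13008 named genes with 1 probe set each, 27.1% did. Between embryos as a whole and hatchlings as a whole (E vs. H), 7 ABC genes were higher in hatchlings (ABCA3, ABCB1, ABCC4, ABCD3, ABCF2, ABCG5 and ABCG8) and 3 were lower (ABCC6, ABCC8 and ABCC9). These are 19.4% and 8.33% of the 36, where 5.41% of named genes were called higher and 4.11% lower. A pooled difference need not be a step at hatch. The mean of ABCC4 was 7.92 at E20 and 7.79 at D1, and that of ABCG5 was 8.34 at E20 and 8.30 at D3. The median absolute difference was 0.36 over the ABC genes and 0.16 over the named genes, and the median signed difference of the ABC genes was 0.05.

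Step by step, most calls fell between E18 and D3. From E16 to E18, 0 ABC genes were called in limma, against 0.215% of named genes higher and 1.37% lower, and 6 of the 36 had an unadjusted p under 0.05. Named genes under that unadjusted limit were not counted. From E18 to E20, 6 genes rose (ABCB1, ABCC4, ABCC13, ABCD2, ABCD3 and ABCF2) and 0 fell, or 16.7% against 2.4% of named genes called higher and 1.83% called lower. From E20 to D1, 3 rose (ABCA3, ABCG5 and ABCG8) and 3 fell (ABCC8, ABCC9 and ABCG2), where 3.43% of named genes rose and 2.28% fell. From D1 to D3, 0 rose and 5 fell (ABCA8, ABCC8, ABCC13, ABCG5 and ABCG8), or 13.9% against 1.88% of named genes called lower and 2.63% called higher. From D3 to D9 only ABCC8 and ABCC9 were called, both higher, which is 5.56% of the 36 against 0.969% of named genes called higher and 1.84% called lower. Without E18 replicate 2 and D9 replicate 1 the counts were 11 in E vs. H, 7 from E18 to E20, 6 from E20 to D1, 5 from D1 to D3 and 0 from D3 to D9. The shares of named genes are those of the full set of livers.

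**Figure D1:**
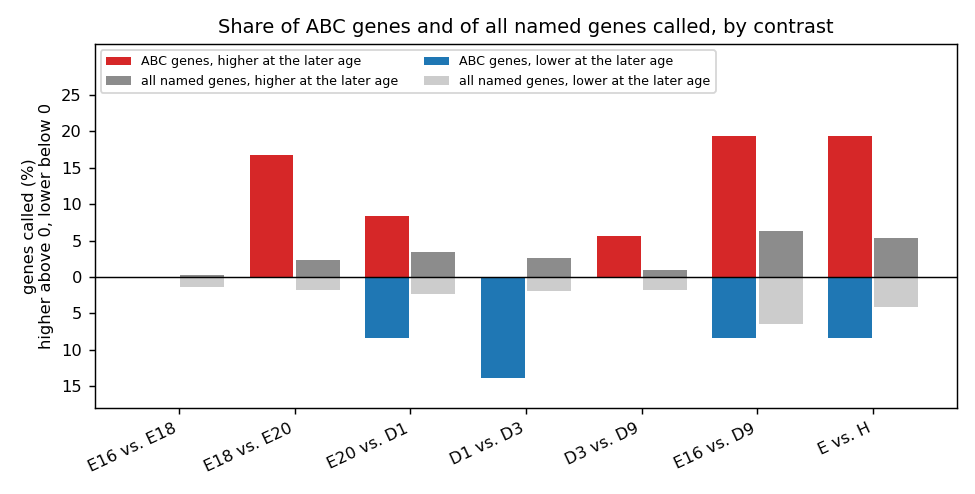
Percent of the 36 ABC genes (red, higher, and blue, lower) and of 13008 named genes (grey) called in each contrast; bars above 0 are genes higher at the later age and bars below 0 genes lower there. The ABC genes called from E18 to E20 all rose (16.7%), and those called from D1 to D3 all fell (13.9%).

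Over the whole span from E16 to D9, 7 ABC genes were called higher (19.4% against 6.28% of named genes) and 3 lower (8.33% against 6.48%). Without E18 replicate 2 and D9 replicate 1, ABCC6 (-0.73) and ABCD2 (just short of 0.75) lost their calls from E16 to D9. In the same contrast 5 of the 8 macrophage markers were higher, and their part in these counts was not tested. In total 14 of the 36 were called in at least 1 contrast, ABCC8 in 5 of the 7 and ABCG8 in 4. How many named genes were called in at least 1 contrast was not counted. Among the 17 that varied, the highest age mean was at E20 in 4 (23.5%), at D1 in 4 (23.5%), at E16 in 3 (17.6%), at D9 in 3 (17.6%), at D3 in 2 (11.8%) and at E18 in 1 (5.88%). Of the 3524 named genes that varied, 13.1% peaked at E20, 10% at D1, 15.4% at E16, 20.2% at D9, 28.2% at D3 and 13% at E18. Since the contrasts share arrays at E18, E20, D1 and D3, a level that is high at D1 enters both the rise before it and the fall after it.

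**Figure D2:**
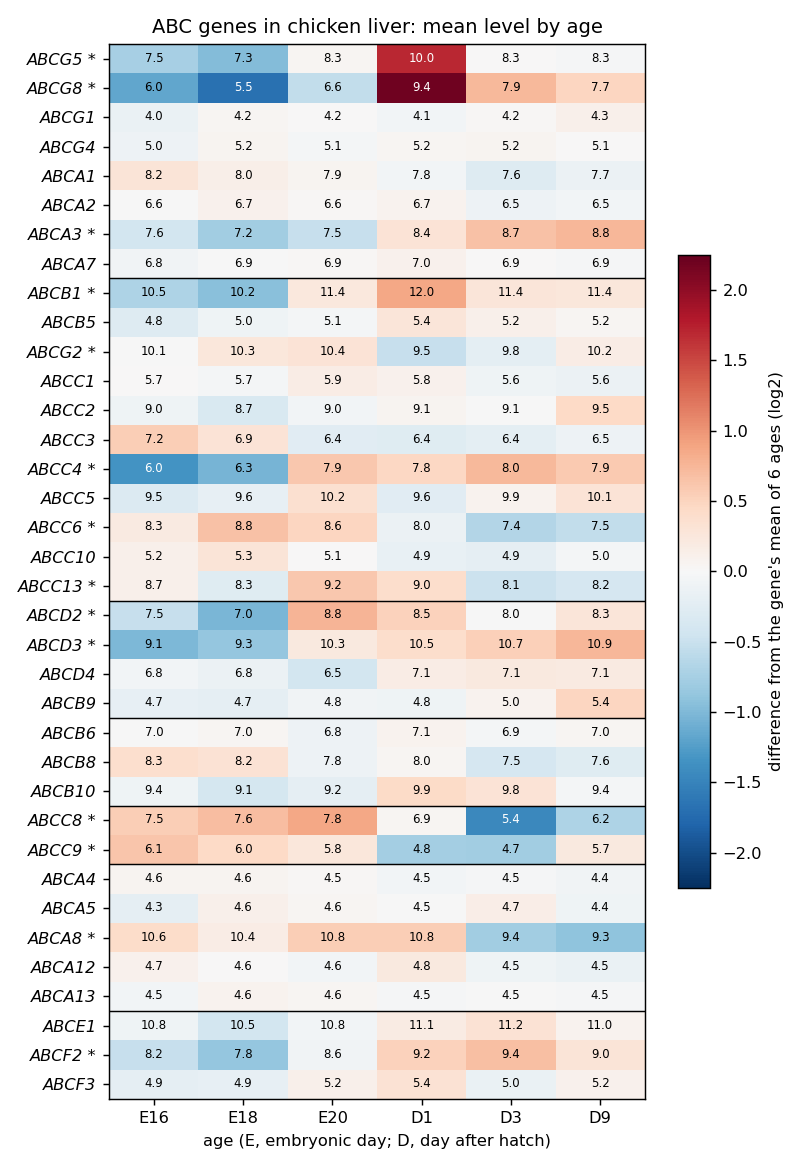
Mean level of each ABC gene at each age (printed in the cells, log2 intensity, 4 livers), coloured by its difference from the gene's own mean of 6 ages (log2), with genes grouped by role and an asterisk on the 14 called in at least 1 contrast. ABCG5 and ABCG8 are reddest at D1, and ABCC8 is red in embryos and blue at D3, where its mean was 5.44.

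The sterol exporters ABCG5 and ABCG8 peaked in the unfed D1 chick. Both proteins together form an obligate pair in the canalicular membrane that secretes cholesterol and plant sterols into bile. The level of ABCG8 was 6.26, 5.86, 6.10 and 5.93 in the E16 livers and 4.93, 5.58, 5.72 and 5.84 at E18. It was 7.29, 6.27, 6.40 and 6.59 at E20 and 9.16, 9.41, 9.45 and 9.50 at D1. Every D1 liver thus lay above every embryo, and the rise from E20 to D1 was 2.74 (SE 0.36, adjusted p = 1.42e-05 in limma), or 6.70-fold. Levels then came down to 8.13, 7.97, 7.43 and 8.19 at D3, where the mean fell by 1.45 (SE 0.36, adjusted p = 0.013) with no overlap between the ages. The D9 livers spread widely, at 8.92, 8.31, 7.02 and 6.49, with 2 birds above all D3 livers and 2 below all of them. Against E16 the D9 mean was still 1.65 higher (SE 0.36, adjusted p = 0.00151), and over all ages hatchlings exceeded embryos by 2.27 (SE 0.21). The step from E18 to E20 was 1.12 (adjusted p = 0.0602) and was not called, though it was with both doubtful livers left out (1.14, adjusted p = 0.0386) or without D9 replicate 1 (adjusted p = 0.0204) or D9 replicate 4 (adjusted p = 0.0229).

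ABCG5 had the same peak and less certain steps. Its levels were 7.74, 7.06, 7.66 and 7.70 at E16, and 8.79, 8.37, 8.18 and 8.01 at E20. At E18 they split, with 5.82 and 6.18 in replicates 1 and 2 and 8.62 and 8.64 in replicates 3 and 4 (7.32 ± 1.52, SD, n = 4). The D1 livers read 10.08, 10.18, 10.32 and 9.37, above every other liver of the series. The rise from E20 was 1.65 (SE 0.47, adjusted p = 0.0284), or 3.14-fold, and the difference to the D3 livers, at 8.23, 8.14, 7.89 and 8.93, was -1.69 (SE 0.47, adjusted p = 0.0323). At D9 the levels were 8.81, 8.68, 7.93 and 7.65, and D9 was not called against E16. The wide E18 group enlarges the shared spread of this gene, and both steps passed the limit narrowly. The rise lost its call without D1 replicate 1, 2 or 3 or E20 replicate 2, 3 or 4 (adjusted p 0.0575 to 0.0755), and the fall without replicate 1, 2 or 3 of either age (adjusted p 0.0761 to 0.0923).

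ABCG5 and ABCG8 are neighbours on chromosome 3 in the RefSeq gene order. Within ages, the livers that deviated upwards in one tended to do so in the other, with Pearson's r = 0.57 and Spearman's rho = 0.72 over 24 deviations from the age means (permutation within ages, p = 3.3e-04 and 8.0e-04, two-sided; 9.9e-04 and 0.0024 after adjustment over 3 neighbouring pairs). The r was 0.53 without the 2 livers whose ABCG5 deviations lay farthest from the median, a choice that did not use ABCG8. It was 0.71 over 20 livers without E18. Replicates of the same number were taken to share a hybridization day across ages, and each gene had a single probe set. Genes that are not neighbours were not correlated, so the correlation is not shown to be particular to neighbours.

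**Figure D3:**
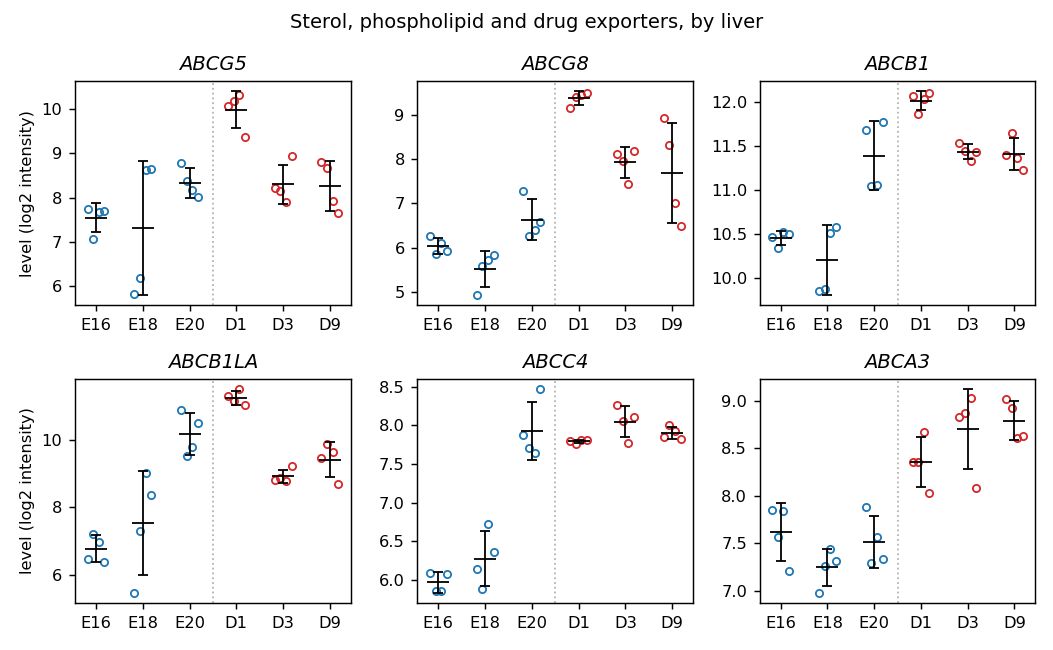
Level (log2 intensity) in each liver of ABCG5, ABCG8, ABCB1, ABCB1LA, ABCC4 and ABCA3 by age; points are livers (embryos blue, hatchlings red), bars are mean ± SD (n = 4) and the dotted line is hatch. ABCG8 rises from at most 7.29 in embryos to at least 9.16 at D1, and ABCC4 from at most 6.72 at E18 to at least 7.64 at E20.

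ABCA3, which loads phospholipid into lung surfactant bodies in mammals, rose at hatch and stayed up. Its level was 7.89, 7.29, 7.56 and 7.33 at E20 and 8.35, 8.36, 8.67 and 8.02 at D1, a difference of 0.83 (SE 0.19, adjusted p = 0.0057). It was 8.83, 8.87, 9.03 and 8.08 at D3 and 9.02, 8.92, 8.60 and 8.62 at D9. No hatchling fell into the range of the 12 embryos (6.98 to 7.89), and the E vs. H difference was 1.15 (SE 0.11, adjusted p = 2.0e-08). From E16 to D9 the difference was 1.17 (SE 0.19). The step at hatch alone was 0.73 and under the size limit without D1 replicate 3. Of 4 other ABCA3 probe sets, 1 was called in the same direction in all 3 of these contrasts (1.23 in E vs. H). Of the remaining 3, 1 had age means of 4.12 to 4.40, below the 25th percentile of all probe set means, which was 4.43. The other probe sets had age means of 4.95 to 5.39, and 1 of them was 0.41 higher in E vs. H (adjusted p = 8.5e-05), under the size limit.

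Of the other lipid exporters, ABCA1, ABCA2, ABCA7, ABCG1 and ABCG4 were not called in any contrast. ABCA1, which hands cell cholesterol to apolipoprotein A-I, differed by -0.32 in E vs. H (95% interval -0.57 to -0.07, adjusted p = 0.0481). Its age means went from 8.16 at E16 to 7.58 at D3. ABCA2, ABCA7 and ABCG4 had age means within 6.48 to 6.69, 6.82 to 6.98 and 5.01 to 5.19, and ABCG1, whose mammalian protein lipidates HDL, was the only ABC gene with a mean (4.14) below the 25th percentile. A low reading of this probe set does not show that the gene is silent.

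Among 15 measured genes of a list of acceptors, receptors and regulators of sterol export, 3 rose and 3 fell in E vs. H, with a median difference of 0.24. Of named genes, 5.41% were called higher and 4.11% lower in that contrast, and the median difference of the named genes lay between -0.015 and 0.010 in each of the 7 contrasts. APOA4, an apolipoprotein of triglyceride-rich particles, was 1.77 higher after hatch (SE 0.15), with a rise of 2.06 from E18 to E20 and another of 1.38 from D1 to D3. SREBF2, the transcription factor that drives cholesterol synthesis, rose by 2.23 from D1 to D3 (SE 0.27, adjusted p = 7.4e-06), the interval in which ABCG5 and ABCG8 fell. NR1H4, the bile acid receptor FXR, fell by 1.10 from E20 to D1 (SE 0.22, adjusted p = 0.00183), the interval in which they rose. A relation of SREBF2 or NR1H4 to ABCG5 and ABCG8 was not tested. LCAT, which esterifies cholesterol on lipoproteins, fell by 1.30 from D1 to D3. From E20 to D1, 0 of the 15 rose and 3 fell, against 3.43% and 2.28% of named genes, and from D1 to D3, 2 rose and 2 fell, against 2.63% and 1.88%.

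Among drug and conjugate exporters, ABCB1 and ABCC4 rose before hatch. ABCB1, the multidrug exporter P-glycoprotein of the canalicular membrane, had levels of 10.46, 10.34, 10.52 and 10.50 at E16. At E18 replicates 1 and 2 were at 9.85 and 9.87 and replicates 3 and 4 at 10.51 and 10.58. The E20 livers were at 11.68, 11.04, 11.06 and 11.77, above all of these, and the rise from E18 was 1.19 (SE 0.16, adjusted p = 6.8e-05), or 2.27-fold. It was 12.07, 11.86, 12.03 and 12.10 at D1, the highest 4 values of the gene, and 11.53, 11.44, 11.32 and 11.43 at D3. The steps into and out of D1 (0.63 and -0.58) passed the p limit and not the size limit. Hatchlings exceeded embryos by 0.93 (SE 0.10, adjusted p = 5.7e-08), and D9 exceeded E16 by 0.95. A second ABCB1 probe set was called in the same direction from E18 to E20 (1.38) and from E16 to D9 (0.79), but was just under the size limit in E vs. H (0.74). It was also called lower from D1 to D3 (-0.81, adjusted p = 0.0276).

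The neighbouring copy, annotated ABCB1LA, has a symbol that does not end in a number and was described after its values were seen. Its age means were 6.77 ± 0.40, 7.54 ± 1.55, 10.19 ± 0.62, 11.26 ± 0.21, 8.93 ± 0.20 and 9.42 ± 0.52 from E16 to D9 (SD, n = 4). The rise from E18 to E20 was 2.65 (SE 0.48, adjusted p = 0.00112) and the difference from D1 to D3 was -2.33 (SE 0.48, adjusted p = 0.00304). At E18 its livers ran from 5.47 to 9.01, with replicates 3 and 4 highest as in ABCB1. The deviations of both copies from their age means correlated with r = 0.74 and rho = 0.70 over 24 livers (permutation p = 0.0112 and 0.0163, adjusted 0.0169 and 0.0244). The r was 0.72 without the 2 livers whose ABCB1LA deviations lay farthest from the median, a choice that did not use ABCB1. Over 20 livers without E18 the r was 0.67. The copies are alike in sequence, and whether their probes read one another was not tested. The third neighbouring pair, ABCC1 and ABCC6 on chromosome 14, had r = 0.27 and rho = 0.27 (permutation p = 0.229 and 0.232 before adjustment and after it).

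ABCC4 stepped up before hatch. Its protein exports cyclic nucleotides and, in mammalian liver, bile salt and steroid conjugates from hepatocyte to blood. The level was 6.09, 5.85, 5.85 and 6.08 at E16 and 6.14, 5.88, 6.72 and 6.36 at E18. It was 7.88, 7.71, 7.64 and 8.47 at E20, with no liver in the earlier range, a rise of 1.65 (SE 0.16, adjusted p = 7.2e-07), or 3.14-fold. It then held, at 7.76 to 7.80 in D1, 7.77 to 8.26 in D3 and 7.82 to 8.01 in D9. D9 stood 1.93 above E16 (SE 0.16, adjusted p = 5.0e-09), or 3.82-fold. The 4 other ABCC4 probe sets had means of at most 4.97 over the 24 livers and none was called, and averaging all of them brings the E16 to D9 difference down to 0.51.

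ABCG2, an exporter of urate, porphyrins and sulfated conjugates, dipped at D1. It was 10.58, 10.15, 10.35 and 10.44 at E20 and 9.11, 9.58, 9.68 and 9.81 at D1, with every D1 liver below every E20 liver, with a difference of -0.83 (SE 0.16, adjusted p = 0.00103). The D3 livers were at 10.16, 9.59, 9.86 and 9.78 and the D9 livers at 10.54, 10.32, 10.24 and 9.86, and neither step was called. D1 replicate 1 was lowest, and without it the difference was -0.69 and below the size limit. One of 2 other probe sets was called in the same direction (-0.84).

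ABCC6, a hepatocyte protein through which ATP leaves the cell and which prevents soft tissue calcification in mammals, declined after hatch. It was 8.05, 7.98, 8.45 and 8.71 at E16 and 8.98, 8.28, 8.99 and 8.80 at E18. It was 7.88, 7.90, 8.10 and 8.01 at D1, 7.81, 7.15, 7.69 and 7.06 at D3 and 7.47, 7.34, 7.82 and 7.52 at D9. The difference in E vs. H was -0.90 (SE 0.11, adjusted p = 7.0e-07), and all D3 and D9 livers lay below all embryos. The E16 to D9 difference of -0.76 (SE 0.19, adjusted p = 0.00498) was under the size limit without E16 replicate 3 (-0.71) or 4 (-0.62) or D9 replicate 1 (-0.73) or 2 (-0.69). The 4 other probe sets of ABCC6 were not called in these 2 contrasts, so the decline rests on 1 probe set. The brightest of them went from 7.62 at E16 to 8.03 at D9 and was called in the opposite direction from D3 to D9 (0.80, adjusted p = 0.0135).

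ABCC13, an ABCC gene that is truncated in the human genome, had its highest age means at E20 and D1 (9.16 and 8.96). The E16 livers, at 8.84, 8.74, 8.19 and 8.91, overlapped those of both ages, and neither age was tested against E16. Its livers were at 7.58, 8.41, 8.59 and 8.55 at E18, at 9.12, 8.54, 9.07 and 9.90 at E20 and at 8.91, 8.74, 8.92 and 9.25 at D1. At D3 they were at 8.13, 8.16, 7.83 and 8.19, below all D1 livers. The rise to E20 was 0.88 (SE 0.24, adjusted p = 0.0243), with overlapping livers, and the difference to D3 was -0.88 (SE 0.24, adjusted p = 0.0241). The rise lost its call without E18 replicate 1 (0.64, adjusted p = 0.115), E20 replicate 1 (adjusted p = 0.0507) or E20 replicate 4 (0.63, adjusted p = 0.118). The fall lost it without D1 replicate 1, 3 or 4 or D3 replicate 1 or 3 (adjusted p 0.051 to 0.0718). Its second probe set read 3.64 to 3.76 throughout.

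ABCC2 and ABCC3 varied in the F test (adjusted p = 0.00131 and 1.4e-05) without a called contrast. ABCC2, the canalicular exporter of conjugated bilirubin in mammals, had age means of 8.97, 8.73, 9.01, 9.12, 9.06 and 9.52 from E16 to D9. It was 0.56 higher at D9 than at E16 (adjusted p = 0.0032). ABCC3, which returns glucuronides to blood, had age means of 7.18, 6.93, 6.37, 6.36, 6.40 and 6.52 and differed by -0.67 from E16 to D9 (adjusted p = 2.9e-04). Both differences were under the size limit, and the livers of E16 and D9 did not overlap in either gene. ABCC5, a nucleotide exporter, had age means of 9.51 to 10.17, and those of ABCC1, ABCC10 and ABCB5 lay between 4.84 and 5.88. In E vs. H, ABCB5 differed by 0.28 and ABCC10 by -0.27 (adjusted p = 3.8e-04 and 0.0012 in limma), both under the size limit.

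Carriers of the SLC families, which move organic anions and cations into or out of hepatocytes, were counted beside the ABC exporters. Of 15 measured, 5 rose and 1 fell in E vs. H (5.41% and 4.11% of named genes), with a median difference of 0.04. SLCO1A2, an uptake carrier for bile salts and drugs, was 5.82 higher after hatch (SE 0.28), with rises of 3.26 from E18 to E20 and 3.43 from E20 to D1. SLC51A and SLC51B, the subunits of the basolateral bile salt exporter, were 4.16 and 3.48 higher, and both rose from E20 to D1 (3.33 and 3.35). SLCO2B1, a carrier of steroid sulfates, differed by -1.39 and fell by 1.77 from D1 to D3. From E18 to E20, where ABCB1 and ABCC4 rose, 2 of the 15 rose and 0 fell (2.4% and 1.83% of named genes).

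Among 10 measured receptors and conjugating enzymes that act ahead of export, 4 rose and 1 fell in E vs. H (5.41% and 4.11% of named genes), and 5 rose and 1 fell from E20 to D1 (3.43% and 2.28%). Their median differences in these contrasts were 0.56 and 0.70. GCLC, the rate-limiting enzyme of glutathione synthesis, was 2.32 higher after hatch (SE 0.12). The glutathione transferase GSTA2 fell by 1.75 from E18 to E20 and then rose by 2.28 at hatch, and GSTA3 rose by 2.09 at hatch. The sulfotransferase SULT1B1 differed by -1.95 in E vs. H.

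The peroxisomal half-transporters ABCD2 and ABCD3 both rose between E18 and E20. ABCD2 imports very long chain and unsaturated acyl-CoA in mammals. Its level was 7.52, 7.80, 7.43 and 7.20 at E16, 6.90, 6.53, 7.31 and 7.18 at E18 and 8.95, 7.81, 9.09 and 9.19 at E20. Even the lowest E20 liver, replicate 2, was above all earlier ones, and the rise was 1.78 (SE 0.23, adjusted p = 2.7e-05), or 3.44-fold. It was 8.45 to 8.68 at D1, 7.72 to 8.34 at D3 and 8.03 to 8.51 at D9. D9 exceeded E16 by 0.79 (SE 0.23, adjusted p = 0.015), a call that was lost without E16 replicate 4 (0.69), D9 replicate 4 (0.71) or D9 replicate 1, where the difference was just short of the limit. A second probe set had an age mean of at most 4.80 and was not called.

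ABCD3, an abundant peroxisomal membrane protein, carries branched-chain acyl-CoA and bile acid precursors. It was 9.25, 8.90, 9.21 and 9.12 at E16, 8.84, 9.30, 9.54 and 9.39 at E18 and 10.69, 9.77, 10.24 and 10.70 at E20. The rise of 1.08 (SE 0.22, adjusted p = 0.00259) was held afterwards, with D1, D3 and D9 livers between 10.16 and 11.16. Here too E20 replicate 2 was the lowest of its age. D9 stood 1.77 above E16 (SE 0.22, adjusted p = 2.0e-06), or 3.40-fold, and hatchlings exceeded embryos by 1.11. ABCD4, a lysosomal cobalamin transporter in spite of its subfamily, had age means of 6.48 to 7.12 and was not called, nor was the lysosomal peptide transporter ABCB9, which was 0.68 higher at D9 than at E16 (adjusted p = 3.2e-04). That was the largest absolute difference of any ABC gene that was not called. At D9, ABCB9 was 5.88 in replicate 1, the liver with high NPPA, and 5.30, 5.19 and 5.27 in the others.

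The enzymes to which ABCD proteins deliver were counted in the same way. Of 19 measured genes of peroxisomal fatty acid oxidation, 1 rose and 1 fell in E vs. H (5.41% and 4.11% of named genes), and 2 rose and 0 fell from E18 to E20 (2.4% and 1.83%). The median differences of the list were -0.15 and -0.01. ACOT8, a peroxisomal thioesterase, rose by 0.97 from E18 to E20 and by 0.94 from E20 to D1. CROT, which makes the carnitine esters that leave peroxisomes, differed by -1.28 in E vs. H, and ECI2, an enoyl-CoA isomerase, fell by 1.23 from D1 to D3. ACOX2, the oxidase of branched chains and bile acid precursors, rose by 1.29 from E20 to D1 (SE 0.14).

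**Figure D4:**
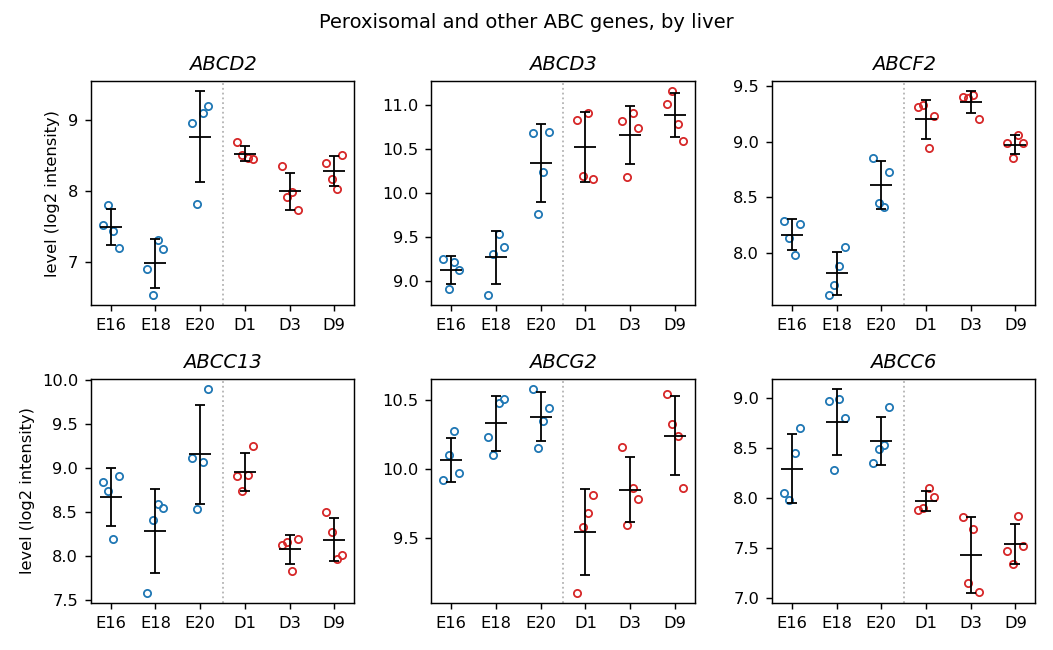
Level (log2 intensity) in each liver of ABCD2, ABCD3, ABCF2, ABCC13, ABCG2 and ABCC6 by age; points are livers (embryos blue, hatchlings red), bars are mean ± SD (n = 4) and the dotted line is hatch. ABCD2 and ABCD3 step up between E18 and E20, with E20 replicate 2 lowest at 7.81 and 9.77, while ABCC6 goes down to 7.06 at D3.

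The 3 mitochondrial ABC genes were not called in any contrast. ABCB8, a carrier of the inner membrane, varied in the F test (adjusted p = 0.0278) and differed by -0.65 from E16 to D9 (adjusted p = 0.0352), or by -0.77 with a call without E16 replicate 4. ABCB10, which supports haem synthesis, had age means of 9.05 to 9.88 and was 0.46 higher after hatch (adjusted p = 0.0158). ABCB6, named as a porphyrin carrier, kept age means of 6.85 to 7.05. Of 20 measured genes of iron-sulfur cluster assembly, 1 rose (NUBP2, a cytosolic assembly factor, 1.10) and 1 fell (FDXR, the electron donor of mitochondrial ferredoxin, -1.73) in E vs. H, where the shares of named genes were again 5.41% and 4.11% and the median difference of the list was 0.08. The mean level per liver of 5 measured erythroid markers, a cell type with heavy haem synthesis, ran from 8.46 to 8.61 at E16 and from 7.05 to 7.31 at E20. Its part in the ABCB8 values was not tested.

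The sulfonylurea receptors ABCC8 and ABCC9 fell at hatch, and ABCC9 was back in its embryonic range at D9. They transport nothing themselves and form the regulatory subunits of ATP-sensitive potassium channels, ABCC8 best known from pancreatic beta cells and neurons, ABCC9 from muscle and the cells of vessel walls. ABCC8 was 7.58, 7.72, 7.80 and 7.95 at E20 and between 7.16 and 7.81 in the younger embryos. It was 6.64, 6.90, 6.83 and 7.42 at D1, a difference of -0.81 (SE 0.18, adjusted p = 0.00451), and 5.50, 5.50, 5.31 and 5.46 at D3, a further difference of -1.50 (SE 0.18, adjusted p = 6.1e-06), or 2.84-fold. Neither step had overlapping livers. At D9 it was 6.55, 5.56, 6.47 and 6.23, all above D3. The rise of 0.76 (SE 0.18, adjusted p = 0.0154) sat at the size limit and lost its call without D3 replicate 3 (0.71) or D9 replicate 1 (0.64), 3 (0.67) or 4, and the difference at hatch was -0.71 without D1 replicate 1. The difference was -1.40 in E vs. H (SE 0.10, adjusted p = 4.1e-10) and -1.26 from E16 to D9. There was 1 probe set.

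ABCC9 was 6.05, 5.85, 5.68 and 5.44 at E20 and 4.62, 4.54, 5.0 and 4.84 at D1, with no overlap, as the mean fell by 1.00 (SE 0.27, adjusted p = 0.0175). It was 4.68, 4.31, 4.61 and 5.30 at D3 and 5.93, 5.42, 5.79 and 5.77 at D9, a rise of 1.00 (SE 0.27, adjusted p = 0.0331) that brought it back to the embryonic range of 5.32 to 6.87. D9 was not called against E16 (-0.40, adjusted p = 0.367 in limma). One D3 liver was below the 25th percentile of probe set means, so the size of the rise from D3 to D9 may be understated. The fall lost its call without E20 replicate 1 (adjusted p = 0.0533) or D1 replicate 2 (adjusted p = 0.0557). The rise lost it without replicate 1, 2 or 3 of D3 or replicate 1, 3 or 4 of D9 (adjusted p 0.0757 to 0.125). E vs. H was -0.88 (SE 0.15, adjusted p = 9.1e-05). A second probe set with a mean of 4.41 moved the same way from E20 to D1, from D3 to D9 and in E vs. H (-0.53, 0.40 and -0.52) and was not called.

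The pore subunit KCNJ8, which pairs with ABCC9 in vessel walls, had age means of 7.05, 7.11, 7.45, 6.82, 6.06 and 6.86. It fell by 0.76 from D1 to D3 (SE 0.18, adjusted p = 0.00838) and rose by 0.80 from D3 to D9 (SE 0.18, adjusted p = 0.0084). The list held 2 pore subunits, and only KCNJ8 was measured. Some markers of vessel cells were called over the same ages. The mean level per liver of 6 measured endothelial markers was 9.12 to 9.30 at E20, 8.77 to 9.00 at D1, 8.22 to 8.60 at D3 and 8.55 to 9.03 at D9. Of these 6, only 1 was called in each step. PECAM1 fell at hatch (-0.83), and VWF fell from D1 to D3 (-0.78) and rose from D3 to D9 (0.79). Of named genes, 2.28% fell at hatch, 1.88% fell from D1 to D3 and 0.969% rose from D3 to D9. The mean level of 9 stellate, mural and other stromal markers was 8.61 to 8.85 at E20 and 8.26 to 8.43 at D3. Of these 9, only RGS5 was called from D3 to D9 (1.05). From E20 to D1 and from D1 to D3, 0 of the 9 were called, and in E vs. H 0 rose and 2 fell. From D3 to D9, where ABCC8 and ABCC9 rose, 3 of 7 lymphocyte markers and 1 of 8 macrophage markers rose as well. D9 replicate 1, the liver with high NPPA, was the highest D9 liver for both ABCC8 (6.55) and ABCC9 (5.93). Both calls from D3 to D9 were lost without it, as they were without some other livers. The part of all these cells, and of heart or muscle tissue, in the ABCC8, ABCC9 and KCNJ8 values was not tested.

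**Figure D5:**
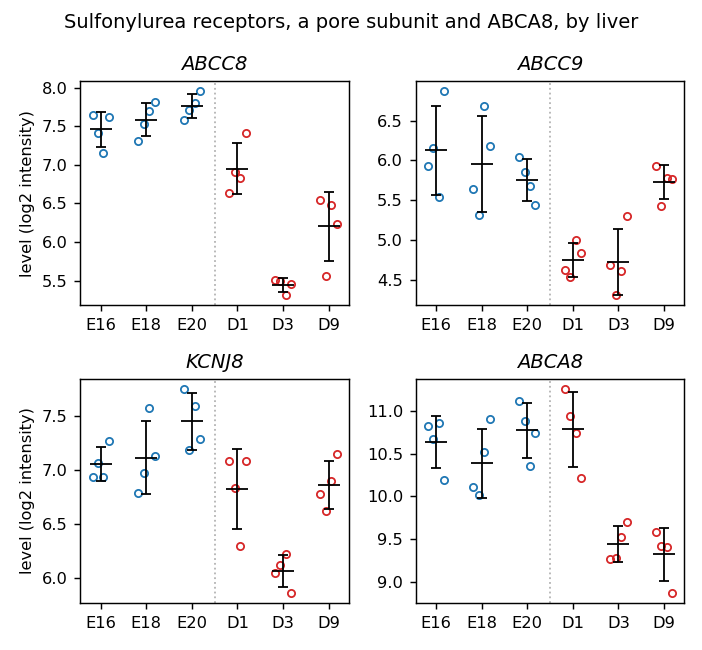
Level (log2 intensity) in each liver of ABCC8, ABCC9, the pore subunit KCNJ8 and ABCA8 by age; points are livers (embryos blue, hatchlings red), bars are mean ± SD (n = 4) and the dotted line is hatch. ABCC8 is lowest at D3 (5.31 to 5.50) and ABCA8 drops from at least 10.21 at D1 to at most 9.70 at D3.

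ABCA8, which moves cholesterol and sphingolipid in mammalian liver, fell between the unfed D1 and the fed D3 chicks. It was 10.83, 10.67, 10.86 and 10.20 at E16 and 11.12, 10.88, 10.35 and 10.74 at E20. At D1 it was 11.26, 10.94, 10.73 and 10.21, and at D3 it was 9.27, 9.28, 9.53 and 9.70. All D3 livers were below all D1 livers, and the difference was -1.34 (SE 0.22, adjusted p = 3.6e-04), or 2.54-fold. D9 stayed low at 9.59, 9.42, 9.41 and 8.87, with a difference of -1.32 from E16 (SE 0.22). The second ABCA8 probe set was called in the same direction in both contrasts (-1.70 and -1.61). In E vs. H the difference was -0.75 and missed the size limit in the next decimals, and it was called in 12 of the 24 fits that left out 1 array. The second probe set was called lower in E vs. H (-0.89, adjusted p = 0.0023 in limma). The other A members, ABCA4, ABCA5, ABCA12 and ABCA13, had age means of 4.32 to 4.84 and were not called.

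Of the ribosome-associated members, ABCF2 rose. ABCF2, a soluble ABC protein bound to ribosomes, was 8.29, 8.13, 7.99 and 8.26 at E16 and 7.62, 7.71, 7.88 and 8.05 at E18. That difference (-0.35) was not called. At E20 it was 8.86, 8.45, 8.41 and 8.73. The rise of 0.80 from E18 (SE 0.11, adjusted p = 6.8e-05) had no overlap, but was under the size limit without E18 replicate 1 (0.73) or E20 replicate 1 (0.72). It was 9.31, 9.33, 8.95 and 9.23 at D1, 9.41, 9.39, 9.42 and 9.21 at D3 and 8.99, 8.86, 9.06 and 8.99 at D9. Hatchlings exceeded embryos by 0.98 (SE 0.06, adjusted p = 5.3e-11), the difference with the smallest standard error among the called ones. D9 exceeded E16 by 0.81, or just under the limit without E16 replicate 3. Of 3 other probe sets, 1 was called in the same direction in these contrasts (1.36 in E vs. H), and the others had age means of 3.99 to 4.46. The called probe set was also lower at E18 than at E16 (-0.96, adjusted p = 0.0023). ABCE1, which splits ribosomes after termination, was 0.39 higher after hatch (adjusted p = 1.8e-05) with age means of 10.49 to 11.23, and ABCF3 had age means of 4.91 to 5.44. Of 12 measured translation partners, 1 rose in E vs. H, PELO, the rescue factor that works with ABCE1 (1.00, SE 0.10), and 0 fell, against 5.41% and 4.11% of named genes. The median difference of this list was 0.43.

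In all, 22 of the 36 genes were called in no contrast, a share that was not counted among named genes. For 10 of the 22 the mean over 24 livers was 5.2 or less, a low level at which the array separates amounts poorly. For the 22 a missed limit does not show that the level held.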

How the data were processed

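The authors deposited 1 table of log2 expression values for 24 Affymetrix Chicken Genome Arrays, produced by RMA (robust multi-array average: background correction, quantile normalization across arrays, then summary of the probes of a set) through affylmGUI, which calls limma 3.30.13. Quantile normalization removes any shift that all genes share. Values ran from 3.05 to 15.24. No read depth applies, and 4 birds an age limit the precision. Of 38535 probe sets, 96 controls were left out. A single symbol was given for 27168 probe sets by the platform table, more than 1 for 177 and no symbol for 11094, and genes were named only from the first kind. All 36 genes matched the RefSeq gene table by gene ID, with unchanged symbols; it served for names and neighbours alone.

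The model in limma 3.58.1 (R 4.3.3) was fitted to every probe set with 1 mean per age over all 24 arrays (18 residual and 3.81 prior degrees of freedom), and two-sided moderated tests were adjusted by Benjamini and Hochberg over 38439 probe sets. The limits of 0.05 and 0.75 are those of the study's methods. E vs. H sets the mean of 3 hatchling ages against that of 3 embryonic ages. The fit was tested on simulated data. Correlations used 100000 permutations within ages (Python 3.11.15, scipy 1.17.1), and figures matplotlib 3.10.9. Every ABC gene called in a contrast was named with its livers, and up to 4 genes of each partner list by size among those called. The genes, lists and markers were chosen with earlier results of these data known. Neighbouring-tissue, macrophage, lymphocyte, granulocyte and biliary markers were also scored. Alternatives are given with the limits. The block is the replicate number, taken as the hybridization day of the study's methods. Deviations from age means correlated at 0.071 on average for the 60 array pairs of different ages that shared a replicate number and at -0.0234 for the 180 that did not.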

Additional observations from a re-analysis of the deposited data

Results flagged for a closer look

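In 4 of 102 groups of 4 livers (17 varying ABC genes at 6 ages), 1 liver stood apart from the others by more than Dixon's 95% critical value. Chance flags about 1 in 20 groups, or 5.1 of 102. ABCB8 was 7.36 in E20 replicate 4, where the other livers read 7.89 to 8.0. ABCC4 was 7.76 in D1 replicate 2, where the other livers read 7.80 throughout at this rounding, so the gap is small in size. ABCF2 was 9.21 in D3 replicate 4, against 9.39 to 9.42 in the others. ABCG5 was 7.06 in E16 replicate 2, against 7.66 to 7.74 in the others. The split of ABCG5 at E18 was not marked, since the test looks for a single liver.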

How the results depend on the processing

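For the largest called contrast of each of the 14 called ABC genes, no direction was reversed in any alternative. Of the 39 called pairs of gene and contrast, 25 kept their call in each of the 24 fits that left out 1 array and 14 lost it in at least 1. With 1 array left out, the count of called ABC genes ran from 3 to 5 from D1 to D3 (3 without replicate 1 or 3 of either age), from 0 to 2 from D3 to D9 (0 without D3 replicate 3 or D9 replicate 1, 3 or 4, and 1 without D3 replicate 1 or 2), from 10 to 11 in E vs. H, from 8 to 11 from E16 to D9, from 4 to 7 from E18 to E20 and from E20 to D1, and from 16 to 18 in the F test. It stayed at 0 from E16 to E18. From D3 to D9 the count of 2 became 0 after cyclic loess or without both E18 replicate 2 and D9 replicate 1, and 1 with array weights, with only the arrays compared or with the probe sets of each gene averaged. That average also gave 6 in place of 10 in E vs. H and 5 in place of 10 from E16 to D9. It gave 4 in place of 6 from E18 to E20 and from E20 to D1, and 11 in place of 17 in the F test. Dim probe sets enter the average. For ABCC6 a second bright probe set (mean 7.71) enters as well, which differed by -0.08 in E vs. H (adjusted p = 0.62 in limma). Among the differences that the average took under the size limit were those of ABCA3 (0.63) and ABCC4 (0.51) from E16 to D9. Others were ABCC6 (-0.29) and ABCF2 (0.57) in E vs. H, ABCG2 (-0.58) from E20 to D1 and ABCC13 (-0.38) from D1 to D3. ABCD2 (0.40 from E16 to D9) and ABCC9 (-0.70 in E vs. H and 0.70 from D3 to D9) were under it as well. ABCD2 from E18 to E20 and ABCC9 from E20 to D1 kept their calls. The probe set of largest variance gave 1 from E16 to E18, ABCF2, which was lower at E18. With no limit on the difference, 23 were called in E vs. H, 11 from E20 to D1 and 16 from E16 to D9. Shares of named genes are given for the main fit only. With array weights the count from E18 to E20 was 4. With trend and robust fits ABCG5 from D1 to D3 had an adjusted p of 0.0502. Leaving out dim probe sets moved no count by over 1.5 times. With the hybridization day as a replicate block the counts were 10 in E vs. H, 6 from E18 to E20, 6 from E20 to D1, 5 from D1 to D3, 2 from D3 to D9, 10 from E16 to D9, 0 from E16 to E18 and 18 in the F test, and no call was lost. E vs. H uses all arrays, so it has no fit of only the arrays compared. The level of a dim probe set is close to background, which limits what can be read from the 10 genes at 5.2 or less.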
